A study of Mus musculus with 16 samples.

Results

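Myosin light chains are the small subunits that wrap around the lever arm of the myosin motor, and the data below describe the transcripts of 10 light chain genes in mouse ventricle. The members were taken by gene symbol through their Ensembl identifiers: Myl1, Myl2, Myl3, Myl4, Myl6, Myl7, Myl9, Myl12a, Myl12b and Mylpf, which correspond to 11 of the 55573 genes counted because the symbol Myl12b has 2 identifiers. The libraries were made from the ventricle of 1 male mouse each, 16 in all without pooling, and fall into 4 groups of 4. Every mouse, controls included, carried αMHC-MerCreMer, a Cre recombinase driven by a cardiomyocyte promoter and switched on by tamoxifen, together with Trbp-Flox/Flox alleles. Control mice received corn oil and Trbp-cKO mice tamoxifen at 30 mg/kg on 5 days from the age of 4 weeks, so that loss of Trbp, an RNA-binding partner of Dicer, cannot be told apart from exposure to tamoxifen or active Cre in these samples. Each genotype then underwent sham surgery or transverse aortic constriction (TAC), which narrows the aorta and raises the load on the left ventricle, and ventricles were collected about 8 weeks later, at 16 weeks of age.

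Each myosin head carries an essential and a regulatory light chain. In the adult ventricle these are Myl3 and Myl2, in the atrium Myl4 and Myl7, and in fast skeletal muscle Myl1 and Mylpf, while Myl6 is the essential and Myl9, Myl12a and Myl12b are the regulatory chains of smooth muscle and nonmuscle myosin. Phosphorylation of the regulatory chains by light chain kinases adjusts force in striated muscle and starts contraction in smooth muscle, and atrial light chains are well known to appear in ventricles that are developing or overloaded.

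The start regions of Myl3, Myl9 and Myl4 are shown first, since these are the light chain genes that were called between groups, together with that of Myl7, the other atrial chain. They come from the RefSeq promoter table of build GRCm38.p6 and run 5′ to 3′ on the gene's own strand, and annotated exon bases were left out of the printed stretch. Capitals mark matches to the CArG box, the element bound by serum response factor, and to the M-CAT element CATTCCT, bound by TEAD factors, searched on both strands.

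Myl3 (chr9:110763428-110763645, plus strand): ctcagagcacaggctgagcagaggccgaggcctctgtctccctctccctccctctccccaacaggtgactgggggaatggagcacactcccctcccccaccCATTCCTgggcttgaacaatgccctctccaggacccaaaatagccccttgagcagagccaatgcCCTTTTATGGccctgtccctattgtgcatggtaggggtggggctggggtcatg
Myl9 (chr2:156775214-156775419, plus strand): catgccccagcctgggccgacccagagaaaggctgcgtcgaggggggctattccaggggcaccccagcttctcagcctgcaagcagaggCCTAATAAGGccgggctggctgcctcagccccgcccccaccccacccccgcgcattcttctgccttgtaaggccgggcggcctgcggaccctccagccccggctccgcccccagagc
Myl4 (chr11:104550413.0-104550662.0, plus strand): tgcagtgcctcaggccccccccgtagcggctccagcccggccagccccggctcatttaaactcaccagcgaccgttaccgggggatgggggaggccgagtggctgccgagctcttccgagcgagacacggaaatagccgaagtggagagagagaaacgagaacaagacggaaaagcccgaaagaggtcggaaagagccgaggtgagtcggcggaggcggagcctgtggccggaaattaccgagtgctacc
Myl7 (chr11:5898783-5899032, minus strand): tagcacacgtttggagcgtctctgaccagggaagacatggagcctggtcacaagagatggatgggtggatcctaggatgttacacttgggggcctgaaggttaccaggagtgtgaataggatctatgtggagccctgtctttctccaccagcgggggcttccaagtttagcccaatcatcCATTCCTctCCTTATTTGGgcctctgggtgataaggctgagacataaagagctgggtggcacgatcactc

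Positions are counted back from the listed start. The CArG box of Myl3 (CCTTTTATGG) spanned -85 to -76, that of Myl9 (CCTAATAAGG) -161 to -152 and that of Myl7 (CCTTATTTGG) -61 to -52, while the region of Myl4 matched none of the 6 motifs searched. A further match stood in a start region of Myl6 at -50 to -41, so that 4 of the 10 light chain genes held a CArG box within 250 bases of a start, against 1.47% of 32851 start regions of that length in the table. CATTCCT was present in Myl3 and Myl7 and in 4.51% of all start regions. No member matched the MEF2 site, which 2.92% of start regions did. CAGCTG was found in 4 members (13% of all regions), AGATAA in 1 (9.99%) and TATAAA in 2 (12.4%). Myl2 is 1 of the members counted for each of these 3, and its regions, the nearer of which ends at chr5:122093188, lie well upstream of the annotated gene and of its annotated transcripts, so that the bases next to that start were not searched. Without Myl2 the 3 counts are 3, 0 and 1. Members with 2 listed starts had 2 chances of a match, a match is a description of letters, and the windows that held none say nothing about the factors.

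Total counts per heart ran from 45166994 to 68274222. The targeted gene, Tarbp2, was 3.38-fold lower in Trbp-cKO sham than control sham and 3.13-fold lower in Trbp-cKO TAC than control TAC hearts. Of the 10 cardiomyocyte markers examined, none was at 0 in any group. Sln and Bmp10, from the list of 8 atrial markers, stayed at or below 0.175 and 0.164 CPM (counts scaled to TMM-adjusted library size) in every heart. The other atrial markers are taken up below. Control TAC hearts 1 and 2 stood apart: mitochondrial transcripts made up 38.2% and 38.8% of their counts, against 18.2 to 26.3% in the other 14 hearts, and the results that lost or gained a call without both are given below with their values. Trbp-cKO TAC heart 4 also stood apart: its counts differed from those of the other 3 hearts of its group by a chi-square per degree of freedom of 233 to 284 over all genes, against 33.6 to 48.4 among those 3, and it had the lowest Myl3 and the highest Myl4 and Myl9 values of the 16 hearts. A score of circadian clock genes was higher in all control sham hearts (1.07 to 2.62) than in the Trbp-cKO sham hearts (-1.85 at most), so that clock phase at collection and deletion cannot be told apart between the sham groups. The score also separated the surgeries within each genotype, at -0.30 to -0.11 in control TAC hearts, and at -1.85 or less in Trbp-cKO sham against -0.85 to 1.75 in Trbp-cKO TAC hearts, so the same holds for clock phase and TAC. The TAC groups overlapped in it.

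All 11 rows passed the filter on low counts. Myl7 did so through the Trbp-cKO TAC group, where 4 hearts exceeded the minimum of 0.163 CPM against 1 heart in the other groups together. By mean CPM per kilobase of exon over the 16 hearts, Myl2 (2250) stood first, followed by Myl3 (1067), Myl12a (179), Myl6 (59.3), Myl9 (58.2), Myl12b (27.4), Myl1 (18.7), Myl4 (0.616), Mylpf (0.559) and Myl7 (0.251). The ventricular pair thus led the order and the atrial Myl4 and Myl7 and the fast skeletal Mylpf closed it. With the longest coding transcript as the length, Myl12b and Myl1 exchanged places.

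**Figure D1:**
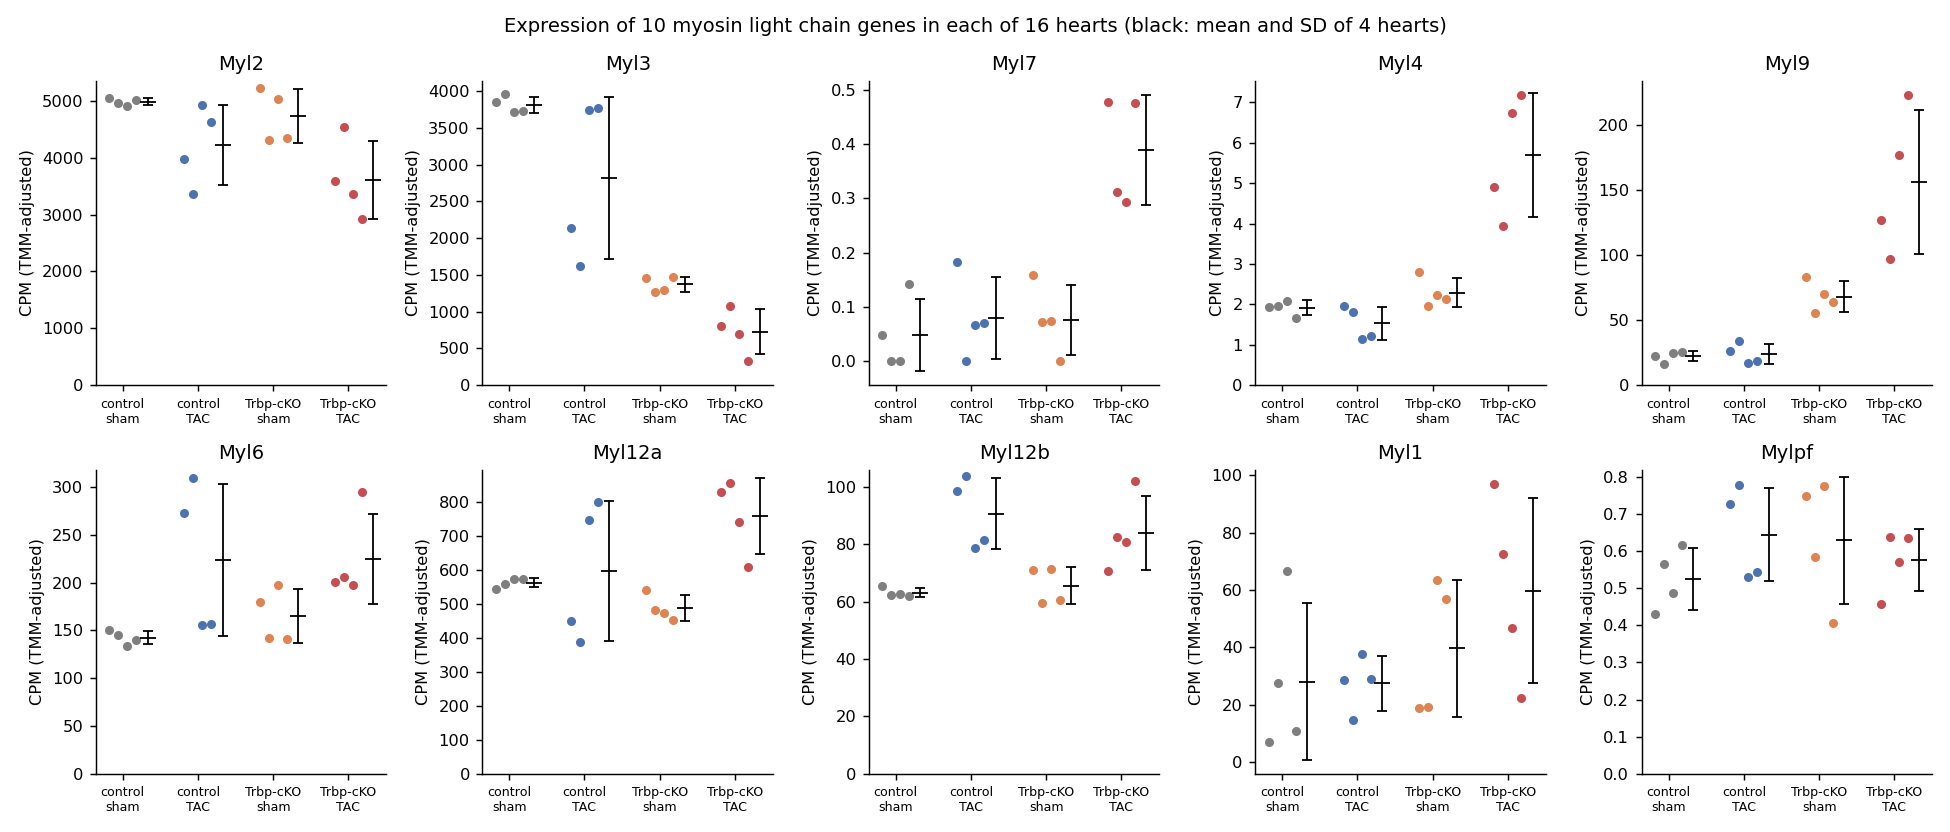
CPM of the 10 light chain genes, 1 panel a gene, with each point a heart, groups along the horizontal axis and the mean with SD of 4 hearts in black. Myl3 is lower and Myl9 higher in all Trbp-cKO hearts than in all control hearts, and Myl4 and Myl7 are highest in the Trbp-cKO TAC hearts.

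A gene was called when edgeR's quasi-likelihood test gave an adjusted p of at most 0.05 over the 19955 genes tested and the log2 fold change was at least 0.8 in size. Between the genotypes after sham surgery, 2 of 10 light chain genes were called, Myl9 higher and Myl3 lower in Trbp-cKO hearts, where 0.967% of all genes were. Between the genotypes after TAC there were 3 calls of 10 (2.46% of all genes), with Myl9 and Myl4 higher and Myl3 lower in Trbp-cKO hearts. Within the Trbp-cKO genotype, Myl9 and Myl4 were called higher after TAC than after sham surgery, 2 of 10 against 5.57% of all genes. In control TAC against control sham hearts none was called (3.75% of all genes), although Myl12b passed the adjusted p without the fold, as 6.29% of genes did. There, 2 light chain genes had an unadjusted p under 0.05, and DESeq2 called 0 by both thresholds. The interaction, which asks whether the effect of deletion differed between TAC and sham surgery, was called for 1 member, Myl4 (0.872% of all genes). By the hearts alone, the 4 hearts of each group did not overlap for Myl9, Myl3 and Myl12a in the sham comparison of genotypes (14.7% of all genes), for Myl9, Myl4 and Myl3 after TAC (10% of all genes), for these 3 and Myl12a between the Trbp-cKO groups (17.2% of all genes) and for Myl6 and Myl12b between the control groups (17.4% of all genes). Myl7 is left out of this count, since it passed the filter through the group where it was high. The median log2 difference over the 10 genes was 0.23, 0.18, 0.52, 0.09 and 0.20 in these 5 comparisons in turn. Over all genes it was 0.01, -0.01, -0.0016, 0.02 and -0.01. The medians over the 10 genes include Myl7. Without Myl7 the middle gene in turn was Myl6 (0.21), Myl6 (0.0055), Myl6 (0.44), Myl12a (0.09) and Myl2 (-0.15). The comparisons share groups of hearts, so they are not independent of each other, and p-values measure the spread between single hearts.

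**Figure D2:**
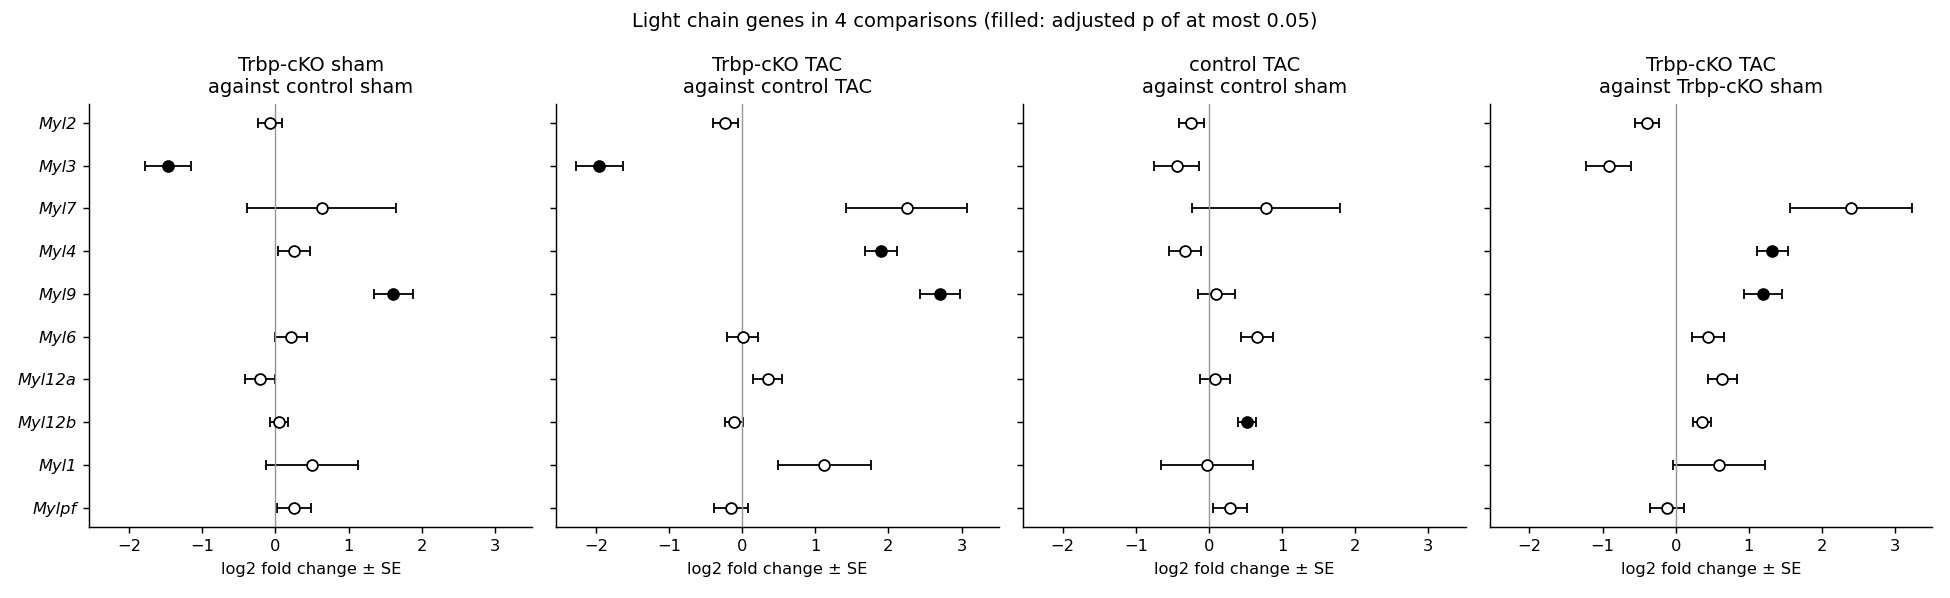
Log2 fold change with its SE (horizontal axis) of each light chain gene (vertical axis) in the 4 comparisons between groups, filled where the adjusted p was at most 0.05. Myl3 lies left of 0 and Myl9 right of 0 in both comparisons of Trbp-cKO with control hearts, and Myl2 lies within 0.40 of 0 in all 4.

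Myl3, the essential light chain of the ventricle (ENSMUSG00000059741, GRCm38 chr9:110741861-110769798, plus strand), was the light chain that fell with the deletion. Control sham hearts 1 to 4 held 3850, 3955, 3715 and 3725 CPM and Trbp-cKO sham hearts 1454, 1270, 1299 and 1469 CPM. Control TAC hearts 1 to 4 held 2132, 1617, 3737 and 3772 CPM and Trbp-cKO TAC hearts 803, 1078, 699 and 328 CPM. Every Trbp-cKO heart was therefore below every control heart, and every Trbp-cKO TAC heart was below every Trbp-cKO sham heart. Control TAC hearts 3 and 4 lay within the range of the control sham hearts, and only hearts 1 and 2 of that group were lower.

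Myl3 was 2.78-fold lower in Trbp-cKO sham than in control sham hearts (log2 difference -1.47, SE 0.31, adjusted p = 0.0300). The 2-group fit (adjusted p = 3.36e-05) and DESeq2 (adjusted p = 0.000156) also passed. In the fit of all 4 groups, however, the call was lost with fewer hearts. With any 1 of them left out the difference stayed between -1.51 and -1.44 while the adjusted p rose to between 0.0623 and 0.0933. With the clock score as a covariate the difference was -2.42 and the adjusted p 0.872. In that fit 0 of 19955 genes passed between the sham groups, so the loss is not particular to Myl3. With the replicate number as a block the adjusted p was 0.0876. After TAC the difference was 3.87-fold (log2 difference -1.95, SE 0.32, adjusted p = 0.00250). It stayed between -2.21 and -1.71 without any 1 heart (adjusted p 0.00126 to 0.0110), at -1.71 without Trbp-cKO TAC heart 4, and was -2.38 without control TAC hearts 1 and 2 (adjusted p = 0.000592). It passed with DESeq2 (adjusted p = 2.55e-08), whereas in a fit of only these 2 groups the adjusted p was 0.0938. Between TAC and sham surgery Myl3 passed in neither genotype by edgeR's quasi-likelihood test: the log2 difference was -0.44 in control hearts (adjusted p = 0.362), which became -0.02 without control TAC hearts 1 and 2, and -0.92 in Trbp-cKO hearts (adjusted p = 0.0759). The latter passed with DESeq2 (adjusted p = 0.0230), with edgeR's exact test (adjusted p = 0.0229) and without Trbp-cKO TAC heart 2 (-1.17, adjusted p = 0.0332). It did not pass without Trbp-cKO TAC heart 4 (-0.67, adjusted p = 0.141). Under the other settings this difference ran from -0.93 to -0.38, at an adjusted p of up to 0.899. The interaction for Myl3 was -0.48 with an adjusted p of 0.634.

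Exons of Myl3 overlap those of Pth1r on the other strand by 95 bases, and the sources used here do not give the strandedness of the libraries. Pth1r itself held between 4.95 and 9.80 CPM in the 16 hearts, far below Myl3, and its difference did not pass the test in any comparison.

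Myl2, the regulatory light chain of the ventricle (ENSMUSG00000013936, chr5:122100951-122113472, plus strand), did not pass in any comparison. Its mean level in control hearts was 4984 ± 61.9 CPM with sham surgery and 4224 ± 704 CPM with TAC, and in Trbp-cKO hearts 4733 ± 467 and 3605 ± 687 CPM (SD, n = 4 each). Neighbouring groups in this order overlapped. The log2 difference between Trbp-cKO and control hearts was -0.07 (SE 0.17) after sham surgery and -0.23 (SE 0.17) after TAC, with adjusted p of 0.912 and 0.453. In bulk tissue, fewer cardiomyocytes and less transcript per cardiomyocyte cannot be told apart, but both chains are read in the same heart, so their ratio was also taken.

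The ratio of Myl3 to Myl2, both in CPM per kilobase, was chosen after the values of Myl3 had been seen. In control sham hearts 1 to 4 it was 0.727, 0.760, 0.722 and 0.710. In Trbp-cKO sham hearts it was 0.265, 0.280, 0.246 and 0.322. Control TAC hearts gave 0.511, 0.460, 0.722 and 0.777 and Trbp-cKO TAC hearts 0.214, 0.226, 0.198 and 0.107. The groups with and without the deletion did not overlap after either surgery, nor did Trbp-cKO TAC and Trbp-cKO sham hearts. The ratio is a description with no test, since it was chosen after Myl3 had been seen to differ between these groups. Control TAC and control sham hearts overlapped. Without control TAC hearts 1 and 2 the mean ratio of that group was 0.750 in place of 0.618, still above all Trbp-cKO TAC hearts.

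Myl4, the essential light chain of the atrium (ENSMUSG00000061086, chr11:104550663-104595753, plus strand), was low in every heart and rose in Trbp-cKO hearts after TAC. Control sham hearts 1 to 4 held 1.93, 1.97, 2.09 and 1.66 CPM and control TAC hearts 1.96, 1.80, 1.14 and 1.21 CPM. Trbp-cKO sham hearts held 2.79, 1.97, 2.24 and 2.13 CPM and Trbp-cKO TAC hearts 4.91, 3.94, 6.73 and 7.20 CPM. The Trbp-cKO TAC hearts were above all 12 other hearts, while the control sham hearts overlapped with both other groups and the Trbp-cKO sham hearts lay just above the control TAC hearts (lowest 1.97 against highest 1.96 CPM). The counts behind these values were 69 to 153 in the 12 other hearts and 246 to 459 in the Trbp-cKO TAC hearts.

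Myl4 was 3.72-fold higher in Trbp-cKO TAC than in control TAC hearts (log2 difference 1.90, SE 0.22, adjusted p = 0.000190) and 2.50-fold higher than in Trbp-cKO sham hearts (1.32, SE 0.21, adjusted p = 0.00103). The former was 2.26 without control TAC hearts 1 and 2 (adjusted p = 0.000359) and the latter fell short of the threshold with the clock score as a covariate (0.70, adjusted p = 0.423). Without Trbp-cKO TAC heart 4 they were 1.77 (adjusted p = 0.000398) and 1.19 (adjusted p = 0.00313). After sham surgery the log2 difference between genotypes was 0.25 (SE 0.21, adjusted p = 0.696). The interaction was 1.64 (SE 0.30, adjusted p = 0.0201). It was 2.02 without control TAC hearts 1 and 2 (adjusted p = 0.00754), but the adjusted p was 0.0556 without control sham heart 3 and 0.0511 without Trbp-cKO sham heart 4. With the replicate block it was 0.0654, and with the clock score the interaction was 0.52 (adjusted p = 0.792).

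Myl7, the regulatory light chain of the atrium (ENSMUSG00000020469, chr11:5896637-5898782, minus strand), was near the limit of detection. Its counts were 3, 0, 0 and 8 for control sham, 10, 0, 4 and 4 for control TAC, 7, 5, 5 and 0 for Trbp-cKO sham and 24, 20, 20 and 30 for Trbp-cKO TAC hearts 1 to 4. All Trbp-cKO TAC hearts were above the 12 others, at 0.293 to 0.479 CPM against at most 0.182 CPM. The edgeR quasi-likelihood test did not pass (log2 difference 2.25, SE 0.83, adjusted p = 0.125 against control TAC and 2.40, SE 0.84, adjusted p = 0.0863 against Trbp-cKO sham hearts). The former was 2.46 without control TAC hearts 1 and 2 (adjusted p = 0.208). The levels are a description, since Myl7 was among the genes tested only through its counts in Trbp-cKO TAC hearts.

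The share of the atrial chain within each pair of the same class was taken in each heart, per kilobase of exon, so that scaling between hearts drops out. Myl4 made up 0.0221% ± 0.00213 of Myl3 and Myl4 together for control sham, 0.0293% ± 0.0183 for control TAC, 0.0732% ± 0.00915 for Trbp-cKO sham and 0.452% ± 0.353 for Trbp-cKO TAC hearts (SD, n = 4 each). The last mean was carried by heart 4, at 0.956%, and was 0.284% ± 0.132 without it (SD, n = 3). With the length of the longest coding transcript it was 1.01% over all 4 hearts. The share was higher in every Trbp-cKO heart than in every control heart of the same surgery, and higher in every Trbp-cKO TAC than Trbp-cKO sham heart. Without control TAC hearts 1 and 2 the mean share in that group was 0.0138%, and the 2 hearts left lay below all control sham hearts. The share is a description with no test, since Myl3, which had been seen to differ between these groups, is nearly all of its denominator. In the sham groups Myl4 itself did not pass, as given above, and the share there differed along with the lower Myl3.

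Myl7 made up 0.00311% ± 0.00439 of Myl2 and Myl7 for control sham, 0.00614% ± 0.00638 for control TAC, 0.00508% ± 0.00411 for Trbp-cKO sham and 0.0374% ± 0.0142 for Trbp-cKO TAC hearts. With the length of the longest coding transcript the share in Trbp-cKO TAC hearts was 0.0170%. The share in each of the 4 was above that in the other 12 hearts, which is given without a test because of the filter.

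**Figure D3:**
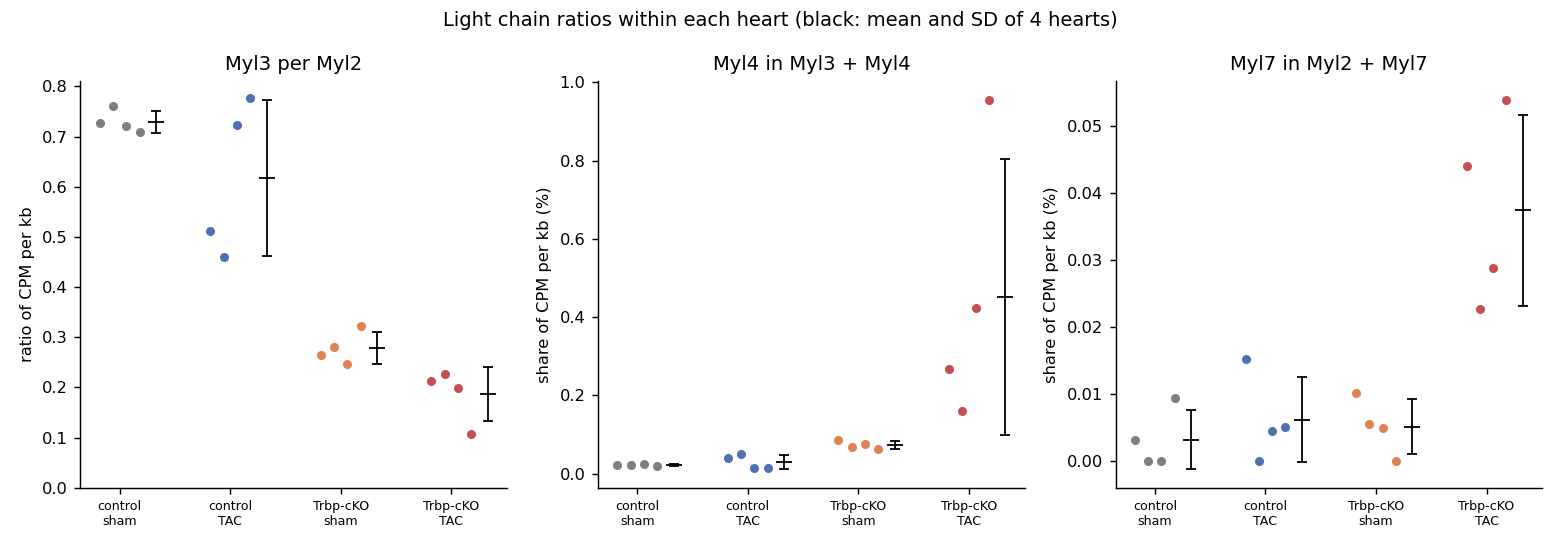
Ratio of Myl3 to Myl2 (left) and shares of Myl4 in Myl3 + Myl4 (middle) and of Myl7 in Myl2 + Myl7 (right, both in %), from CPM per kilobase of exon, with each point a heart and the mean with SD of 4 hearts in black. The ratio is lowest and both shares are highest in Trbp-cKO TAC hearts, where Myl4 reaches 0.161 to 0.956%.

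Other atrial markers did not all move with Myl4. Nppa, the atrial natriuretic peptide gene that ventricles also make under load, averaged 732, 2919, 1266 and 12407 CPM in control sham, control TAC, Trbp-cKO sham and Trbp-cKO TAC hearts and rose with the deletion after TAC (log2 difference 2.09, adjusted p = 0.000512). Dkk3, a secreted protein of the Dickkopf family, rose there too (1.31, adjusted p = 0.0158), and both were also called higher after TAC than sham surgery within each genotype, although Dkk3 in control hearts was not without control TAC hearts 1 and 2 (0.81, adjusted p = 0.320). The other 4 atrial markers tested did not pass in that comparison, of which Kcnj3 did without those 2 hearts (-1.83, adjusted p = 0.00208), and Kcnj3, a potassium channel subunit of atrial muscle, fell with TAC in Trbp-cKO hearts (-2.13, adjusted p = 0.00335). The summed level of all 8 atrial markers was 647 to 1129 CPM for control sham, 1695 to 3935 for control TAC, 1094 to 1602 for Trbp-cKO sham and 10327 to 15814 for Trbp-cKO TAC hearts, most of it Nppa. The atrial markers Sln and Bmp10 were near 0 in every heart, as given above.

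Myl9, a regulatory light chain of smooth muscle and nonmuscle myosin (ENSMUSG00000067818, chr2:156775420-156781658, plus strand), rose with the deletion and rose further after TAC in Trbp-cKO hearts. Control sham hearts 1 to 4 held 22.5, 16.6, 24.9 and 25.1 CPM and control TAC hearts 26.1, 34.1, 17.2 and 18.4 CPM. Trbp-cKO sham hearts held 83.4, 55.9, 69.7 and 63.6 CPM and Trbp-cKO TAC hearts 126.9, 97.4, 177 and 224 CPM. The 2 control groups overlapped, every Trbp-cKO heart exceeded every control heart, and every Trbp-cKO TAC heart exceeded every Trbp-cKO sham heart.

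The difference was 3.06-fold after sham surgery (log2 difference 1.61, SE 0.26, adjusted p = 0.00750) and 6.53-fold after TAC (2.71, SE 0.27, adjusted p = 6.60e-05). Without any 1 heart it was 1.49 to 1.70 and 2.49 to 2.92, the lowest of the latter without Trbp-cKO TAC heart 4, and both passed throughout. Without control TAC hearts 1 and 2 the difference after TAC was 3.12 (adjusted p = 0.000154). With the clock score, it was 2.42 after sham surgery (adjusted p = 0.872, where 0 of 19955 genes passed) and 2.53 after TAC (adjusted p = 0.000213). Between surgeries, Myl9 was 2.29-fold higher after TAC in Trbp-cKO hearts (1.20, SE 0.26, adjusted p = 0.00768, with 0.97, adjusted p = 0.0237, without Trbp-cKO TAC heart 4 and 0.63, adjusted p = 0.703, with the clock score) and differed by 0.10 (SE 0.26, adjusted p = 0.826) in control hearts. The interaction did not pass (1.09, SE 0.36, adjusted p = 0.163), although it did with DESeq2 (1.11, adjusted p = 0.0496).

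Smooth muscle markers were set beside Myl9, since that gene is abundant in vessel walls. After sham surgery 1 of 8 passed the adjusted p (1.68% of all genes), Acta2 (smooth muscle α-actin), at a log2 difference of 1.18 (adjusted p = 0.0417). After TAC 3 of 8 passed (5.53% of all genes): Acta2 at 2.35 (adjusted p = 0.000289), Cnn1 (calponin) at 0.90 (adjusted p = 0.0453) and Synpo2 (synaptopodin 2) at 0.90 (adjusted p = 0.0489). Without control TAC hearts 1 and 2 only Acta2 passed (2.46, adjusted p = 0.00299), with Cnn1 at 1.03 (adjusted p = 0.0953) and Synpo2 at 0.50 (adjusted p = 0.301). Without Trbp-cKO TAC heart 4 Cnn1, at 0.94, fell just short of the threshold. The smooth muscle heavy chain Myh11 differed by 0.03 after sham surgery and -0.15 after TAC, at 32.6, 36.3, 33.4 and 32.8 CPM in control sham, control TAC, Trbp-cKO sham and Trbp-cKO TAC hearts. Lmod1, Smtn, Tagln and Myocd did not pass in either comparison. The summed level of the 8 markers was 509 to 671 CPM for control sham, 345 to 402 for control TAC, 777 to 950 for Trbp-cKO sham and 626 to 1123 for Trbp-cKO TAC hearts, with none at 0, and Acta2 alone averaged 219.8, 91.2, 499 and 466 CPM in these groups. Between surgeries, 2 of 8 passed in control hearts (6.29% of all genes) and 3 of 8 in Trbp-cKO hearts (9.94% of all genes). Acta2 fell with TAC in control hearts (-1.27, adjusted p = 0.0164, and -1.39, adjusted p = 0.106, without those 2 hearts), and in Trbp-cKO hearts Cnn1 (1.29, adjusted p = 0.00365) and Tagln (0.82, adjusted p = 0.0381, and 0.60, adjusted p = 0.120, without heart 4), a calponin relative, rose with TAC. Smtn (smoothelin), a cytoskeletal protein of contractile smooth muscle, fell with TAC in both genotypes without reaching the fold, from 179 to 199.6 to 112 to 141 CPM in control hearts (-0.53, adjusted p = 0.00860, and -0.44, adjusted p = 0.0756, without control TAC hearts 1 and 2) and from 164 to 202 to 112 to 125 CPM in Trbp-cKO hearts (-0.65, adjusted p = 0.000834). Of 6 pericyte markers, none passed with the deletion after sham surgery (1.68% of all genes) and 1 after TAC (5.53% of all genes). This was Cspg4, the NG2 proteoglycan, at 0.66 (adjusted p = 0.0452, and 0.84, adjusted p = 0.0497, without control TAC hearts 1 and 2). With TAC, 1 of 6 passed in control hearts, and in Trbp-cKO hearts 1 passed higher and 1 lower (6.29% and 9.94% of all genes). The lower one did not reach the fold. Cspg4 was called with TAC in control (0.90, adjusted p = 0.0119, and 0.71, adjusted p = 0.162, without those 2 hearts) and Trbp-cKO hearts (1.00, adjusted p = 0.00239). Without Trbp-cKO TAC heart 4, Kcnj8 was lower with TAC in Trbp-cKO hearts (-0.52, adjusted p = 0.0111). The summed level of the 6 pericyte markers was 999 to 1064 CPM for control sham and 948 to 1105 for control TAC hearts. It was 870 to 1107 CPM for Trbp-cKO sham and 779 to 865 for Trbp-cKO TAC hearts. By this sum every Trbp-cKO TAC heart was below every heart of the other groups.

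Of 8 fibroblast markers, 3 were called between the genotypes after TAC (2.46% of all genes) and 5 did not pass. Col1a1, Col1a2 and Postn, the collagen I chains and the matrix protein periostin, were called in 3 of the 4 comparisons between groups, and Lum, the matrix protein lumican, passed after sham surgery without the fold (log2 difference 0.74, adjusted p = 0.00293) and had an interaction of -0.86 (adjusted p = 0.0129). Without control TAC hearts 1 and 2, Col1a1 (0.85, adjusted p = 0.0784) and Col1a2 (0.73, adjusted p = 0.150) no longer passed between the control groups. Without Trbp-cKO TAC heart 4, Postn (0.97, adjusted p = 0.0602) no longer passed between the TAC groups. Col1a1 (0.78, adjusted p = 0.0224) and Col1a2 (0.67, adjusted p = 0.0208) still passed there, but below the fold threshold. None of these 3 genes was thus called between the TAC groups without that heart. The summed level of all 8 was 751 to 847 CPM for control sham, 1031 to 1902 for control TAC, 971 to 1240 for Trbp-cKO sham and 1820 to 3368 for Trbp-cKO TAC hearts. The part of smooth muscle cells, pericytes and fibroblasts in the Myl9 difference was not tested. None of the endothelial, macrophage and erythroid markers passed in any comparison.

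**Figure D4:**
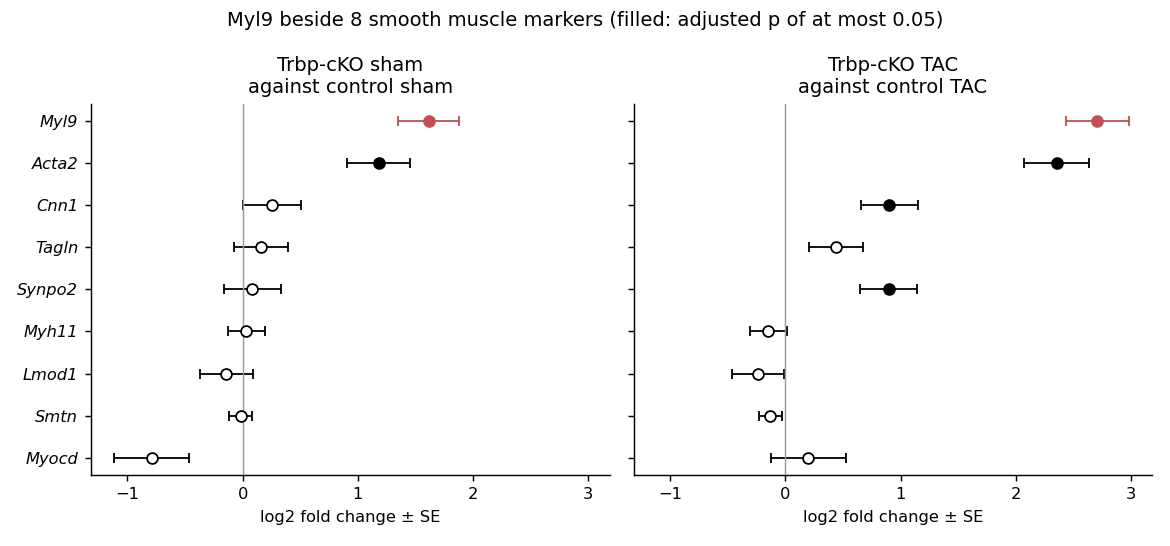
Log2 fold change with its SE (horizontal axis) of Myl9 (red) and 8 smooth muscle markers (black) between Trbp-cKO and control hearts after sham surgery (left) and TAC (right), filled where the adjusted p was at most 0.05. Myl9 lies at 1.61 and 2.71, Acta2 at 1.18 and 2.35 and Myh11 at 0.03 and -0.15.

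Myl6, the essential chain of smooth muscle and nonmuscle myosin (ENSMUSG00000090841, chr10:128490860-128494145, minus strand), did not pass in any comparison by edgeR's quasi-likelihood test with all hearts. Control sham hearts held 134 to 150.3 CPM. Control TAC hearts 1 and 2 held 273 and 309 CPM and hearts 3 and 4 both 156 CPM. The log2 difference of 0.65 (SE 0.22, adjusted p = 0.0817) was thus set by the 2 hearts with the high mitochondrial share, and it was 0.13 without them (adjusted p = 0.904). With all hearts it passed with DESeq2 (0.63, adjusted p = 0.0375), below the fold threshold. With 1 heart left out it ran from 0.45 to 0.79, and the adjusted p from 0.0289 to 0.279. Trbp-cKO sham hearts held 141 to 198 CPM, and Trbp-cKO TAC hearts 200.2, 206, 197 and 295 CPM. Between Trbp-cKO TAC and control TAC hearts the difference was 0.0055. Of the 75-base stretches in its exons, 5.42% also occurred in 5 other genes.

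Myl12b, a regulatory chain of nonmuscle myosin (ENSMUSG00000034868, chr17:70973133-70990890, minus strand), passed with TAC in control hearts without reaching the fold threshold. It was the only light chain to do so by edgeR's quasi-likelihood test with all hearts. Control sham hearts 1 to 4 held 65.6, 62.5, 62.7 and 62.0 CPM and control TAC hearts 98.8, 104, 78.7 and 81.5 CPM, with no overlap, as in 17.4% of all genes. The difference was 1.44-fold (log2 difference 0.52, SE 0.12, adjusted p = 0.0242). It was 0.34 without control TAC hearts 1 and 2 (adjusted p = 0.302). It also failed to pass without any 1 of 6 of the 8 hearts, at an adjusted p of up to 0.0819, in a fit of only these 2 groups (adjusted p = 0.0605) and with the clock score (0.65, adjusted p = 0.144). Between genotypes Myl12b differed by 0.06 after sham surgery and -0.11 after TAC. With TAC in Trbp-cKO hearts it differed by 0.36 (SE 0.12, adjusted p = 0.0824). Under the other settings that difference ran from 0.19 to 0.40, and the lowest adjusted p among them, 0.0287, passed.

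Its neighbour Myl12a (ENSMUSG00000024048, chr17:70993656-71002878, minus strand) encodes a nearly identical regulatory chain. It averaged 562 ± 13.8 CPM with sham surgery and 596 ± 206 CPM with TAC in control hearts, and 487 ± 38.6 and 758 ± 112 CPM in Trbp-cKO hearts (SD, n = 4 each). In the fit of all 4 groups by edgeR's quasi-likelihood test Myl12a passed in no comparison. Control TAC hearts 1 and 2 held 451 and 389 CPM, below all control sham hearts, while hearts 3 and 4 held 746 and 799 CPM, above them. The log2 difference between the control groups was 0.09 with all hearts and 0.46 without hearts 1 and 2 (adjusted p = 0.181). Trbp-cKO TAC hearts (607 to 857 CPM) were all above Trbp-cKO sham hearts (451 to 541 CPM), at a log2 difference of 0.64 (SE 0.20, adjusted p = 0.0588), which passed without Trbp-cKO TAC heart 4 (0.73, adjusted p = 0.0446). Under the other settings this difference ran from 0.63 to 0.88, and the lowest adjusted p among them, 0.00154, also passed. The calls of these genes are uncertain in a further way, because 18.5% of the 75-base stretches of Myl12a and 24.7% of those of Myl12b occur in another gene as well, and exons of Myl12a overlap those of Myom1 on the other strand, which held at least 549 CPM in every heart.

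The other Myl12b entry (ENSMUSG00000117098, chr17:70974119-71002208, minus strand) joins exons of both neighbours and shares 93.3% of its stretches with them. It had no count in any of the 8 control hearts, 0, 108, 418 and 0 in Trbp-cKO sham hearts 1 to 4 and 833, 0, 72 and 128 in Trbp-cKO TAC hearts. Its values overlapped between all groups, its tests did not pass, and since the counting could assign the same reads to any of the 3 genes, no fold is given.

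The fast skeletal pair did not pass in any comparison. Myl1, the essential chain of fast fibres (ENSMUSG00000061816, chr1:66924295-66945404, minus strand), varied widely within groups, with 7.07, 27.7, 66.7 and 10.7 CPM in control sham and 97.2, 72.7, 46.8 and 22.3 CPM in Trbp-cKO TAC hearts. Its coefficient of variation in control sham hearts was 97.4%, against 2.99% for Myl3, and its largest log2 difference, 1.12 between Trbp-cKO TAC and control TAC hearts, had an SE of 0.64 (adjusted p = 0.324). Mylpf, the regulatory chain of fast fibres (ENSMUSG00000030672, chr7:127208890-127214298, plus strand), lay between 0.406 and 0.778 CPM in all 16 hearts. Of 12 skeletal muscle markers, Myh4, the heavy chain of the fastest fibres, was at 0 in all control hearts, and Tnni2, the fast troponin I, was called in all 4 comparisons between groups, at a mean of 0.864, 0.293, 2.50 and 0.625 CPM in control sham, control TAC, Trbp-cKO sham and Trbp-cKO TAC hearts. The calcium pump Atp2a1 fell with TAC in both genotypes (-1.53, adjusted p = 0.0394 in control and -1.60, adjusted p = 0.0219 in Trbp-cKO hearts), and after TAC the thick filament gene Mybpc1 (2.57, adjusted p = 0.0194) and the fast troponin T gene Tnnt3 (1.32, adjusted p = 0.0357) were higher in Trbp-cKO than control hearts. Without control TAC hearts 1 and 2 none of these skeletal genes passed in a comparison with control TAC hearts, at adjusted p of 0.107 and 0.256 for Tnni2, 0.377 for Atp2a1, 0.0701 for Mybpc1 and 0.0609 for Tnnt3. Without Trbp-cKO TAC heart 4, Tnnt3 (1.09, adjusted p = 0.0694) did not pass, and Mybpc2, another thick filament gene, passed against control TAC (1.25, adjusted p = 0.0340) and Trbp-cKO sham hearts (1.39, adjusted p = 0.0144), as Mybpc1 did against the latter (1.85, adjusted p = 0.0476).

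Relatives and partners of the light chains were read from lists. Of 3 further light chain genes, Myl10 was at 0 in every heart, Myl5 was not among the counted symbols, and Myl6b, an essential chain of slow skeletal and nonmuscle myosin, rose with the deletion after TAC (log2 difference 1.07, adjusted p = 0.000824), from 1.92 ± 0.256 to 4.05 ± 0.580 CPM (SD, n = 4 each). Of 14 heavy chain genes 9 could be tested. Myh7b, a slow-type heavy chain, was called lower in Trbp-cKO hearts after sham surgery (-2.39, adjusted p = 0.000869) and after TAC (-3.50, adjusted p = 1.51e-05), at 222, 244, 42.3 and 21.5 CPM in control sham, control TAC, Trbp-cKO sham and Trbp-cKO TAC hearts, and it was lower after TAC in Trbp-cKO hearts (-0.98, adjusted p = 0.0336, and -0.87, adjusted p = 0.0890, without heart 4). Myh10, a nonmuscle heavy chain that binds Myl6, Myl9, Myl12a and Myl12b, passed without the fold with TAC in control hearts (0.46, adjusted p = 0.0317), with TAC in Trbp-cKO hearts (0.65, adjusted p = 0.00223) and with the deletion after TAC (0.55, adjusted p = 0.0135). The first and the last of these had adjusted p of 0.170 and 0.0609 without control TAC hearts 1 and 2. The main ventricular heavy chains Myh6 and Myh7 passed in no comparison (Myh7 did between the control groups without control TAC hearts 1 and 2, at 0.68, adjusted p = 0.0469), with log2 differences between genotypes of -0.20 and -0.24 in the sham groups and 0.19 and -0.21 in the TAC groups.

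Of 12 genes for light chain kinases and the myosin phosphatase, none was called. Rock2, a kinase that inhibits the phosphatase, passed without the fold in Trbp-cKO TAC hearts against control TAC (0.63, adjusted p = 0.0116, and 0.49, adjusted p = 0.0841, without control TAC hearts 1 and 2) and against Trbp-cKO sham hearts (0.64, adjusted p = 0.00473), and it was the only one to pass in any comparison. The kinases Mylk3 of cardiac muscle and Mylk of smooth muscle differed between genotypes by -0.20 and -0.20 in the sham groups and by 0.63 and -0.43 in the TAC groups, none past the threshold, the last pair being -0.04 and -0.05 without control TAC hearts 1 and 2. Of the 10 cardiomyocyte markers, Tnnc1, the calcium-binding troponin of heart and slow muscle, was the one called with the deletion. Its log2 difference was -1.74 after sham surgery (adjusted p = 8.75e-05, with 0.967% of all genes called) and -1.16 after TAC (adjusted p = 0.000566, with 2.46% called). Trbp-cKO hearts thus held less transcript of Myl3 and Tnnc1 while Myl2, Myh6, Myh7 and the other 9 cardiomyocyte markers did not pass in these 2 comparisons. The 10 markers summed to 39041.5 to 43244 CPM for control sham and 15515 to 40063 for control TAC hearts. They summed to 29851 to 40973 CPM for Trbp-cKO sham and 25200 to 40864 for Trbp-cKO TAC hearts. Without control TAC hearts 1 and 2, Tnni3 (-0.61, adjusted p = 0.0527), Myh7 (-0.46, adjusted p = 0.0946) and Myh6 (-0.33) still did not pass after TAC. Of the other 9 markers only Tnnt2 (0.29) was then above 0.

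The genes whose log2 CPM followed a light chain most closely over the 16 hearts, among 12914 genes compared, are given as a description, since all hearts share the 4 groups. Myl2 went with Ndufb9, Ndufa4 and Ndufb4, subunits of respiratory complex I (Pearson r = 0.978, 0.976 and 0.965). Myl3 went with Gm45670, Cryba4 and Tnnt1 (0.954, 0.951 and 0.937), of which Tnnt1 encodes the slow skeletal troponin T. Myl9 went with Gpx3, a secreted glutathione peroxidase, Tmem98 and Csrp2, a LIM protein of smooth muscle (0.963, 0.953 and 0.933). Myl4 went with Ckmt1, a mitochondrial creatine kinase, R3hcc1 and Pafah1b2 (0.927, 0.915 and 0.915), and Myl7, at its low counts, with Sugp1, Park7 and Uap1l1 (0.827, 0.822 and 0.814).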

How the data were processed

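Per the methods of the study, the authors trimmed paired reads of 150 bases with cutadapt 2.3, checked them with FastQC, aligned them with HISAT2 2.1.0 and assembled and quantified transcripts with StringTie 1.3.4. They deposited a table of whole-number gene counts for 16 hearts, not normalized, made from transcript coverage. That step divides coverage times transcript length by a read length whose default is 75 bases, and the setting used is not given in the sources used here. If it was 75, all counts are about 2 times too high and ratios between hearts do not change, which was tried by dividing the counts by 2. The strandedness of the libraries and the annotation release are not given in the sources used here either. Names and positions were taken from GENCODE M21 (GRCm38) by gene identifier.

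After filtering low counts by edgeR's default rule, 19955 genes were fitted together over all 4 groups with edgeR 4.0.16 in R 4.3.3 (TMM normalization, quasi-likelihood test, Benjamini-Hochberg adjustment over these genes), with the comparisons as contrasts. Fold changes are log2 values with their SE, CPM uses TMM-adjusted library sizes, and a call needed an adjusted p of at most 0.05 and a log2 difference of at least 0.8. Shares of Myl4 and Myl7 within a heart are given as descriptions. Exact permutation tests of them were computed but are not used, because the level of Myl3 or the filter on low counts enters each. Totals of 45166994 to 68274222 counts set the precision, which for Myl7 rests on at most 30 counts in a heart.

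All 10 members were named. From lists of light chain relatives, heavy chains, kinases and phosphatase and of cell type markers, named genes are those called in a comparison, with further members given as values, and likeness was taken over genes with a mean log2 CPM of at least 1. The members and lists were chosen with earlier results of these data known. Alternatives were scaling by library size, DESeq2 1.42.0, other filters and fold thresholds, fits of the compared groups only, edgeR's exact test, a replicate block, a clock score and each heart left out in turn. Leaving out control TAC hearts 1 and 2 together, in all comparisons with that group, reading the shares and the marker lists without Trbp-cKO TAC heart 4, and the ratio of Myl3 to Myl2, were chosen after seeing the data. Protein sequences were not used here.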

Additional observations from a re-analysis of the deposited data

Results flagged for a closer look

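Myl6 in Trbp-cKO TAC heart 4, at 295 CPM, stood far from the other 3 hearts of its group, which held 197 to 206 CPM, with a gap of 0.91 of the group's whole range. It was the only such value among 48 groups of 4 hearts examined, where chance gives about 1 in 20 groups. The log2 difference of Myl6 between Trbp-cKO TAC and control TAC was -0.15 without this heart.

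The effect of the deletion on Myl4 differed between surgeries, with an interaction of 1.64 on the log2 scale (SE 0.30, adjusted p = 0.0201 by edgeR's quasi-likelihood test). With 1 heart left out this adjusted p ran from 0.0116 to 0.0556, and under the other settings it was up to 0.792, so the call was not kept throughout. After TAC the 4 hearts of each genotype did not overlap, whereas the sham groups did.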

How the results depend on the processing

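Of 441 values recomputed under other settings, 395 kept their direction and their side of the threshold, 12 lost the threshold, 13 passed it newly and 21 turned. With 1 heart left out, these counts were 449, 16, 4 and 11 of 480. The cause was not tested in any case.

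Without a fold threshold, 1 light chain gene was called between control TAC and control sham. Between the genotypes after sham surgery the count was 1 with the replicate block, where 107 genes in all were called, and 0 with the clock score, where 0 of 19955 genes were. After TAC it was 2 with only these groups (84 genes in all), 4 with the exact test (409), 1 of them Myl7, and 3 otherwise. Between the Trbp-cKO groups it was 4 with the exact test (1378), 1 of them Myl7, 3 with only these groups (1077), 1 of them Myl7, 3 with DESeq2 (1357), where Myl3 passed, and 0 with the clock score (234). Calls of Myl7 are no support, since it entered through the group where it was high. For the interaction the count was 2 with DESeq2 (548), Myl4 and Myl9, and 0 with the replicate block (54) or the clock score (1). With 1 heart left out the counts were 1 to 1 for the genotypes after sham surgery, 2 to 3 between the Trbp-cKO groups and 0 to 1 for the interaction.

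With the replicate block the share differences are the same by construction, since each number occurs once in every group. They were 0.0312 and 0.0323 percentage points for Myl7 in Trbp-cKO TAC hearts compared with the control TAC and the Trbp-cKO sham hearts, and for Myl4 0.423 and 0.379 there and 0.0511 between the sham groups, given with no test. With 1 heart left out they were 0.0257 to 0.0361, 0.0268 to 0.0372, 0.255 to 0.520, 0.211 to 0.476 and 0.0472 to 0.0542, the lowest of the first 4 without Trbp-cKO TAC heart 4. Between the control groups Myl7 gave 4.03e-05 to 0.00509 and Myl4 0.000635 to 0.0125, and Myl7 between the sham groups 0.000313 to 0.00403. Same-numbered hearts of different groups did not deviate together (24 pairs, r from -0.363 to 0.169, against -0.325 to 0.366 in 72 other pairs). The numbers thus gave no sign of pairing between hearts, which this check cannot exclude.

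The log2 differences that turned belonged to genes that had not passed. Between the control groups they were Myl1 at 0.20 with the replicate block and 0.24 without control TAC hearts 1 and 2, Myl9 at -0.33 without those 2 hearts, and Myl4 at 0.17 and Myl12a at -0.12 with the clock score. Between the sham groups they were Myl1 at -0.56 and Myl7 at -0.51 with the clock score and Myl2 at 0.021 with scaling by library size. Between the TAC groups Myl6 was -0.021 with 1 CPM in 4 hearts, -0.0077 with only these groups and with the exact test, -0.0016 with counts divided by 2 and -0.044 with the clock score. There Myl12b was 0.033 with library size, and Myl12a, Myl12b and Mylpf were -0.039, 0.057 and 0.093 without control TAC hearts 1 and 2. The interaction turned for Myl2 (0.40) and Myl3 (0.57) with the clock score and for Myl6 (0.30) and Myl12b (0.0090) without those 2 hearts. With 1 heart left out, Myl1 ran from -0.36 to 0.85, Myl9 from -0.12 to 0.23 and Myl12a from -0.091 to 0.24 between the control groups, Myl6 from -0.15 to 0.20 between the TAC groups, Mylpf from -0.28 to 0.0018 between the Trbp-cKO groups and the Myl1 interaction from -0.26 to 0.95. Neither the fit of only the compared groups nor the exact test was run for the interaction. Depth limits Myl7 most, where a heart with no count allows up to 3.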
